A study of Mus musculus with 5 samples.

Results

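The F-box gene family was compared between mouse ES (embryonic stem) cells, pluripotent cells derived from the early embryo, that were wild type or deficient in Dicer. Members were taken by name: a probe set with exactly 1 gene symbol in the array annotation, that symbol being Fbxl, Fbxo or Fbxw followed by a number. This gave 71 of the 19939 genes tested, namely 18 Fbxl, 36 Fbxo and 17 Fbxw genes, each read from its brightest probe set. Of these, 70 are protein-coding in RefSeq, and the remaining one, Fbxl12os, is a transcript that entered by its symbol alone.

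An F-box is a short protein segment that binds Skp1 and so docks a protein onto the SCF ubiquitin ligase, which is built on the cullin Cul1 and the RING protein Rbx1. The F-box protein chooses the substrate, so that the family as a whole decides which proteins these ligases mark, most often for destruction by the proteasome. The letter after Fbx names the part that meets the substrate: leucine-rich repeats in Fbxl proteins, WD40 repeats in Fbxw proteins, and other or unassigned segments in Fbxo proteins. In ES cells the family is known for control of the cell cycle and of Myc and Notch proteins, and Fbxo15 is a familiar marker of the undifferentiated state.

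The data were Affymetrix arrays of total RNA, 3 of wild-type and 2 of Dicer-deficient cells, which the series' design text calls biological replicates. Dicer is the enzyme that releases mature microRNAs from their hairpins. Both genotypes were grown feeder-free in an equal mixture of serum with LIF and N2B27 with 2i, a serum-free medium with inhibitors of differentiation signals, and were harvested asynchronous and with no further agent. The cell line, the clone and the deleted stretch of Dicer1 are not given in the sources used here, and an effect of Dicer loss cannot be told apart from any other difference between the lines. A further Dicer-deficient array and the early G1 cultures named in the design text were not analysed here.

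Array medians lay between 5.39 and 5.45 on the log2 signal scale, and 3404 of all genes (17.1%) differed between the genotypes at a limma adjusted p below 0.05, called "passing" from here on. Dicer1 read 8.84, 8.82 and 8.85 in wild-type and 7.20 and 6.84 in Dicer-deficient cells, 3.52-fold lower (limma adjusted p = 0.000129). All 11 ES cell markers lay above the median signal of all probe sets, 5.41, in both genotypes. Their array medians were 10.26 to 10.48 in wild-type and 10.30 to 10.69 in Dicer-deficient cells, and their median change was -0.195. Esrrb, Tdgf1 and Klf4 fell. In these and in Tfcp2l1 and Dppa3, which did not pass, both Dicer-deficient arrays lay below all wild-type arrays. That is 5 of the 11, beside 19.9% of all genes of any signal, and 0 of the 11 lay above without overlap. The 3 that passed are 27.3% of the list, beside 27.9% of all genes above the median signal. Of 7 trophectoderm markers 3 rose (Krt8, Krt18 and Gata3). Cdx2, Elf5, Tfap2c and Eomes did not pass, and Eomes changed by -0.49 (limma adjusted p = 0.0977). The list's median change was 0.06. Its array medians were 5.77 to 6.08 in wild-type and 6.91 to 7.11 in Dicer-deficient cells, and the latter equal the values of Gata3. Among 10 feeder fibroblast markers Vim rose and Fn1 fell, and 0 of 7 primitive endoderm markers passed (0 with an unadjusted p below 0.05). In each of 3 further lists 1 marker rose: Pax6 of 5 neuroectoderm, Kdr of 4 measured mesoderm and Zp3 of 7 oocyte markers. These are 20%, 25% and 14.3% of their lists, beside 17.1% of all genes. The part of these markers in the results below was not tested. In bulk RNA, fewer cells of a type and less RNA per cell cannot be told apart.

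Of the 71 F-box genes, 13 passed (18.3%), beside 17.1% of all genes. Fbxl17, Fbxl4, Fbxo25, Fbxo28, Fbxo31 and Fbxo9 rose in Dicer-deficient cells, and Fbxo7, Fbxo44, Fbxl20, Fbxw8, Fbxo34, Fbxo5 and Fbxw4 fell. The 6 rises stood beside 8.48% of all genes called higher and the 7 falls beside 8.60% called lower. Changes were small: only Fbxo7 and Fbxl17 passed with a fold of at least 1.5, that is 2.82% of the family beside 7.43% of all genes. The median log2 change was -0.02 over the family and 0.01 over all genes, and the median size of change regardless of sign was 0.08 beside 0.115. In 25 members (35.2%) the arrays of the genotypes did not overlap, beside 39.9% of all genes. Of all 71 members, 10 were higher in Dicer-deficient cells without overlap, beside 20.0% of all genes, and 15 were lower, beside 19.9%.

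**Figure D1:**
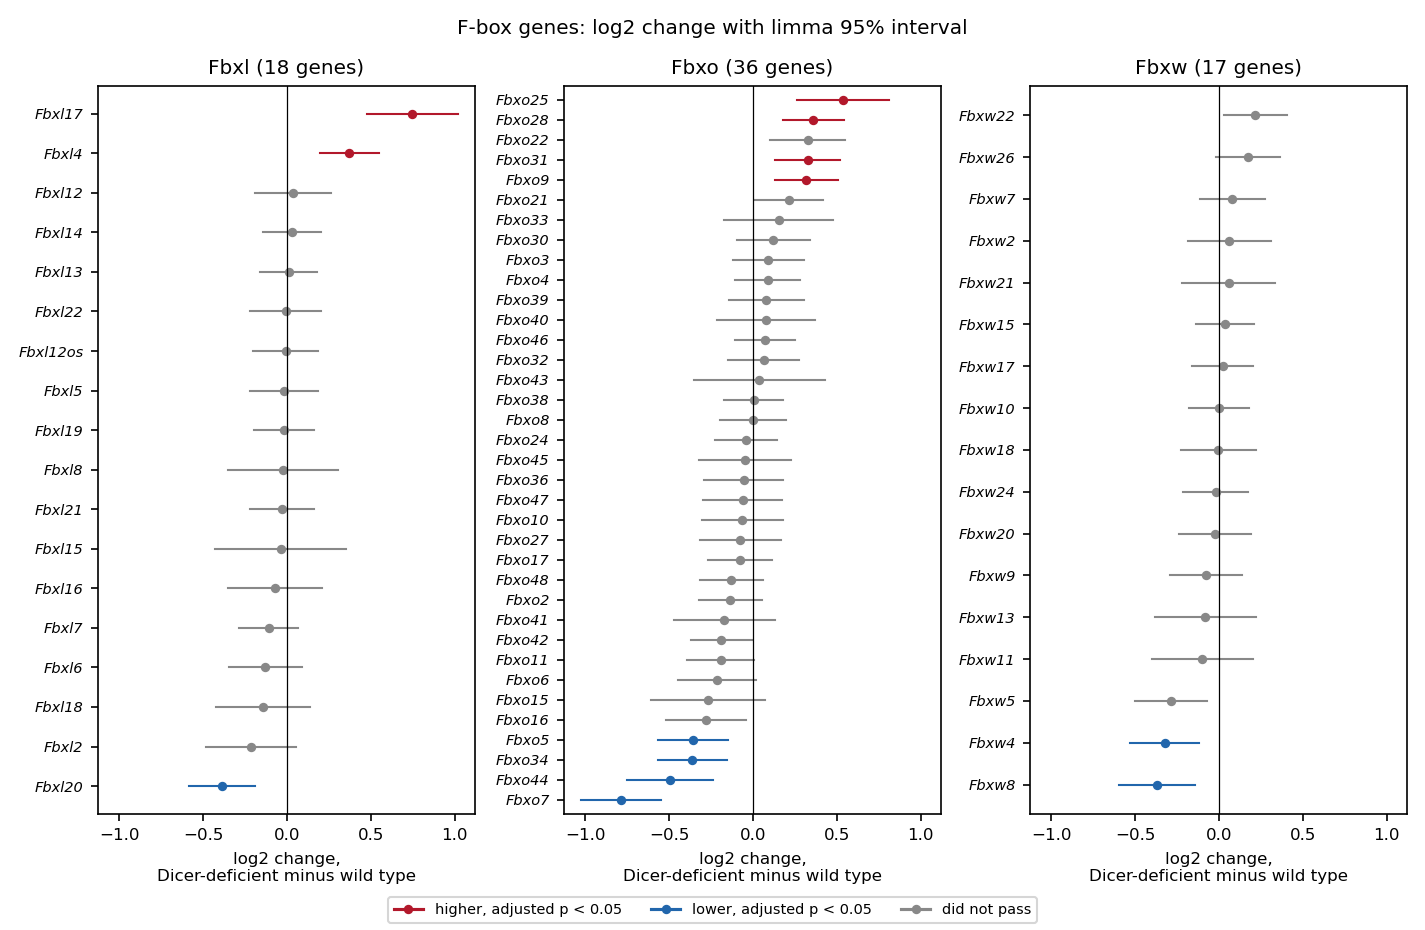
Log2 change of each of the 71 F-box genes (x axis, Dicer-deficient minus wild type) in 3 panels by subfamily, with points at limma's estimate and bars at its 95% interval, red for genes that passed higher, blue for genes that passed lower and grey for the rest. The extremes are Fbxl17 at 0.75 and Fbxo7 at -0.79, and 58 genes did not pass.

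Fbxo7 had the largest change of the family. It encodes a substrate receptor that also binds the proteasome regulator PI31 and is known from inherited parkinsonism and mitophagy. Its log2 signals were 7.77, 7.86 and 7.77 in wild-type and 7.16 and 6.87 in Dicer-deficient cells. Both Dicer-deficient arrays lay well below the tight wild-type values. The fall was 0.79 on the log2 scale (SE 0.103, 95% interval -1.02 to -0.55), or 1.72-fold, with a limma adjusted p of 0.00214. It was the only F-box gene to pass in all 5 fits that each left out 1 array, with changes of -0.93 to -0.64 and adjusted p from 0.0159 to 0.0367. Of the 24 nearest genes above the median signal, 0 passed lower and 5 passed higher, with a median change of 0.12. The part of that neighbourhood in the result was not tested.

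Fbxl17 had the largest rise. Its protein recognises wrongly paired BTB-domain proteins and removes them. Signals were 7.75, 7.55 and 7.49 in wild-type and 8.48 and 8.21 in Dicer-deficient cells. The genotypes did not overlap, and Dicer-deficient array 1 was the farther from wild type. The rise was 0.75 (SE 0.116), or 1.68-fold, with a limma adjusted p of 0.0044. It passed in 4 of the 5 fits with 1 array left out. Without Dicer-deficient array 1 the change was 0.61 and the adjusted p 0.0887.

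The DNA just upstream of these genes and of 3 others that fell is shown because the promoters of the passing genes were searched for short motifs. Fbxo7, Fbxl17, Fbxo44 and Fbxl20 have the largest changes among passing genes with a promoter entry. Fbxo5 was added by choice, although Fbxl4, Fbxo34 and Fbxo28, which are not shown, have entries and larger changes. Each line gives the 120 bases before the most upstream RefSeq start on GRCm38.p6, 5′ to 3′ on the gene's own strand, with the letters CCAAT, or ATTGG for the same motif on the other strand, in capitals.

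Fbxo7, chr10:86021809-86021928, plus strand: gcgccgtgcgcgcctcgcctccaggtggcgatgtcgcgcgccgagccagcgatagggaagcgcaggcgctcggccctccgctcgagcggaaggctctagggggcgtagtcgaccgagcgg

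Fbxl17, chr17:63500581-63500700, minus strand: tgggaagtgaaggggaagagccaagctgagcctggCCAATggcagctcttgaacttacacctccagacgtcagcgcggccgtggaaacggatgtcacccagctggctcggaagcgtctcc

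Fbxo44, chr4:148160095-148160214, minus strand: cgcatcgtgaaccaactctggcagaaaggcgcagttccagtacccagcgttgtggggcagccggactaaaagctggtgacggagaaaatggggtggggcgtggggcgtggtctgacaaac

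Fbxl20, chr11:98149617-98149736, minus strand: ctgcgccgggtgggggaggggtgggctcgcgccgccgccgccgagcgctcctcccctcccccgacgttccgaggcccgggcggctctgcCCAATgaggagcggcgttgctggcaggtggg

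Fbxo5, chr10:5805466-5805585, minus strand: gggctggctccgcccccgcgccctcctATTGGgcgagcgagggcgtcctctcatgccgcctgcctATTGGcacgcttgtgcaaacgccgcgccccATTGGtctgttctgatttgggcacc

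Fbxo5 holds 3 copies in this stretch, all on the other strand, Fbxl17 and Fbxl20 hold 1 each, and Fbxo7 and Fbxo44 hold 0. RefSeq promoter entries were matched for 53 of the 71 members, 10 of the 13 passing ones among them. CCAAT in either orientation within 250 bases upstream of any listed start was present in 7 of those 10: Fbxl17, Fbxo28 and Fbxo9 among 5 that rose, and Fbxl20, Fbxo34, Fbxo44 and Fbxo5 among 5 that fell. In Fbxo44 it lies before another start than the one shown. It was present in 7 of 43 members that did not pass (16.3%), in 5 of 26 (19.2%) when only those above the median signal were counted, and in 37.5% of all 27025 genes of the table. This motif was singled out among 11 after the counts were seen, so the shares are a description with no test. The 10 others were searched on both strands. They were the E2F letters TTTNNCGC with its special forms TTTGGCGC and then TTTCCCGC, the CRE letters TGACGTCA, the NRF1 motif and the CHR letters TTTGAA, as well as the ETS letters ACTTCCGG, the E-box CACGTG, the letters TGANNNTGC and the ATF letters TGACGTAA. Each was found before at most 1 of the 10 passing genes. All 10 are rarer than CCAAT, being found in 0.485% to 18.3% of all genes of the table. Of the 43 members that did not pass, 9 had TGANNNTGC and 6 had TTTGAA. A match to 5 letters is not a binding site.

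Of the 18 Fbxl genes 3 passed (16.7%, beside 17.1% of all genes), and the median change was -0.02. Besides Fbxl17, Fbxl4 rose and Fbxl20 fell. Fbxl4 encodes a mitochondrial protein that holds back mitophagy. It read 5.30, 5.28 and 5.33 in wild-type and 5.71 and 5.64 in Dicer-deficient cells. The wild-type values lay within 0.05 of each other but just under the median of all probe sets, so the size of the change is uncertain. The rise was 0.37 (SE 0.0755), or 1.29-fold, at a limma adjusted p of 0.0139. The call was lost without wild-type array 2 or either Dicer-deficient array (adjusted p from 0.0664 to 0.101).

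Fbxl20, also called Scrapper, is a receptor known for degrading a synaptic release protein in neurons. Signals were 7.17, 7.05 and 7.01 in wild-type and 6.73 and 6.65 in Dicer-deficient cells. All Dicer-deficient values lay below all wild-type values. The fall was 0.39 (SE 0.0847), or 1.31-fold, at a limma adjusted p of 0.0187, and was lost without wild-type array 1 or 2 or either Dicer-deficient array (0.0582 to 0.146). Fbxl20 lies on chromosome 11, where 22.7% of genes above the median signal passed lower beside 14.4% over all chromosomes. Of its 24 nearest such genes 10 passed lower and 1 higher, with a median change of -0.18. The part of that neighbourhood in the result was not tested.

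The other 15 Fbxl genes changed by -0.22 to 0.04. The best studied of them did not pass. Fbxl5, the iron-sensing receptor for the iron regulatory protein Irp2, changed by -0.02 (95% interval -0.22 to 0.19). Fbxl21, which acts on cryptochromes of the circadian clock, changed by -0.03 at a dim signal of 4.08 to 4.23. Fbxl2 at -0.215 (limma adjusted p = 0.295) and Fbxl18 at -0.145 (0.539) had the largest changes among those that did not pass.

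Of the 36 Fbxo genes 8 passed (22.2%, beside 17.1% of all genes), 4 in each direction, with a median change of -0.04. The genotypes did not overlap in 16 of them (44.4%, beside 39.9% of all genes). Whether the subfamilies differ in these shares was not tested. Among the rises, Fbxo25, a relative of the muscle atrophy gene Fbxo32, read 7.17, 6.97 and 6.87 in wild-type and 7.66 and 7.42 in Dicer-deficient cells. The groups were separate, with Dicer-deficient array 2 closer to the wild-type range. The rise was 0.54 (SE 0.117), or 1.45-fold, at a limma adjusted p of 0.0182. Only the fit without wild-type array 1 kept the call, and the others gave 0.0626 to 0.206.

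Fbxo28, an F-box protein of the nucleus that ubiquitylates Myc, read 7.29, 7.36 and 7.28 in wild-type and 7.63 and 7.71 in Dicer-deficient cells. Neither group spread by more than 0.1. The rise was 0.36 (SE 0.0778), or 1.28-fold (limma adjusted p = 0.0179), and passed only without wild-type array 3, with 0.0571 to 0.12 in the other fits. Fbxo31, known for degrading cyclin D1 after DNA damage, read 8.05, 8.16 and 8.03 against 8.35 and 8.46. It rose by 0.325, or 1.25-fold (limma adjusted p = 0.0357). A second, dimmer Fbxo31 probe set read 5.51 to 5.72 with a change of 0.05, so the probe sets of this gene differ, and their mean gave a change of 0.19 with an adjusted p of 0.163. Fbxo9, a receptor for mTOR-linked Tel2 and Tti1, read 6.48, 6.37 and 6.48 against 6.72 and 6.80. It rose by 0.32, or 1.25-fold (limma adjusted p = 0.0341). Neither Fbxo31 nor Fbxo9 passed in any fit with 1 array left out, at 0.0712 to 0.204 and 0.0518 to 0.184, and a moderation with an intensity trend gave 0.0531 for Fbxo9.

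Among the falls, Fbxo44 read 6.32, 6.06 and 5.99 in wild-type and 5.61 and 5.65 in Dicer-deficient cells. It belongs to the small group of F-box proteins with a domain for binding sugar chains of glycoproteins, although binding is best known for its relatives Fbxo2 and Fbxo6. The fall was 0.49 (SE 0.11), or 1.41-fold, at a limma adjusted p of 0.0201, and was lost without wild-type array 2 or either Dicer-deficient array (0.0757 to 0.196). Fbxo6, Fbxo44 and Fbxo2 are direct neighbours on chromosome 4. Fbxo6 changed by -0.21 (95% interval -0.45 to 0.02, limma adjusted p = 0.223) and Fbxo2 by -0.135 (-0.32 to 0.05, 0.354). All 3 estimates were negative, and only that of Fbxo44 passed. Of the 24 nearest genes of Fbxo44 above the median signal 3 passed lower and 3 higher, with a median change of -0.11. The part of that neighbourhood in these values was not tested.

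Fbxo5, or Emi1, is the inhibitor that holds back the anaphase-promoting complex (APC/C) from S phase until mitosis, and was the brightest passing member. It read 9.70, 9.62 and 9.56 in wild-type and 9.36 and 9.18 in Dicer-deficient cells. The closest arrays of the groups were 9.56 and 9.36. The fall was 0.36 (SE 0.0904), or 1.28-fold, with a limma adjusted p of 0.0333. It passed in 0 of the 5 fits with 1 array left out, at 0.0505 to 0.209. Its close relative Fbxo43, or Emi2, which acts on the same complex in the egg, changed by 0.04 at a signal of 3.81 to 4.32. Of 18 genes of the APC/C and its partners, 8 had an unadjusted limma p below 0.05, beside 5545 of all 19939 genes of any signal. The median change was -0.10. Among the 18, 1 rose (Anapc4, by 0.465) and 1 fell (Anapc11, by 0.40), together 11.1% beside 27.9% of all genes above the median signal. Neither kept its call without either Dicer-deficient array (limma adjusted p from 0.0616 to 0.185 where lost, which for Anapc4 includes the fit without wild-type array 1 and for Anapc11 that without wild-type array 2).

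Fbxo34 read 6.86, 6.87 and 6.99 in wild-type and 6.47 and 6.62 in Dicer-deficient cells. The groups were separate. The fall was 0.36 (SE 0.0877), or 1.28-fold (limma adjusted p = 0.0282), and passed in 0 of the 5 fits with 1 array left out (0.0633 to 0.194). It lies on chromosome 14, where 132 of 392 genes above the median signal passed lower (33.7%) and the median change was -0.15. Of the 24 nearest such genes 11 passed lower and 3 higher, with a median change of -0.26. The other member on that chromosome, Fbxo16, changed by -0.28 without passing (limma adjusted p = 0.115), and 9 of its 24 nearest genes passed lower. The part of the chromosome in these values was not tested.

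The other 28 Fbxo genes changed by -0.28 to 0.33. Fbxo22, a receptor for the histone demethylase Kdm4a and the brightest member, came closest to passing. It read 10.21, 10.26 and 10.02 in wild-type and 10.53 and 10.45 in Dicer-deficient cells. The groups did not overlap, and the change of 0.33 had a limma adjusted p of 0.056, beside 0.0424 for Fbxw4 on the passing side of the threshold. A second quantile normalization moved it to 0.38 with an adjusted p of 0.016, and it also passed with an intensity trend (0.0317) and among genes above the median signal alone (0.0349).

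Fbxo15, the ES cell marker and a known target of Oct4 and Sox2, read 9.54, 9.51 and 9.15 in wild-type and 9.29 and 8.97 in Dicer-deficient cells. The groups overlapped, and the change was -0.27 (95% interval -0.61 to 0.07, limma adjusted p = 0.3). Fbxo11, a receptor for the repressor Bcl6, changed by -0.19 (-0.40 to 0.01) and the bright members Fbxo21 and Fbxo42 by 0.21 and -0.19 (limma adjusted p = 0.159 and 0.166). Fbxo32, the muscle atrophy gene atrogin-1, lay below the median signal and changed by 0.07, and Fbxo4 likewise by 0.09.

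**Figure D2:**
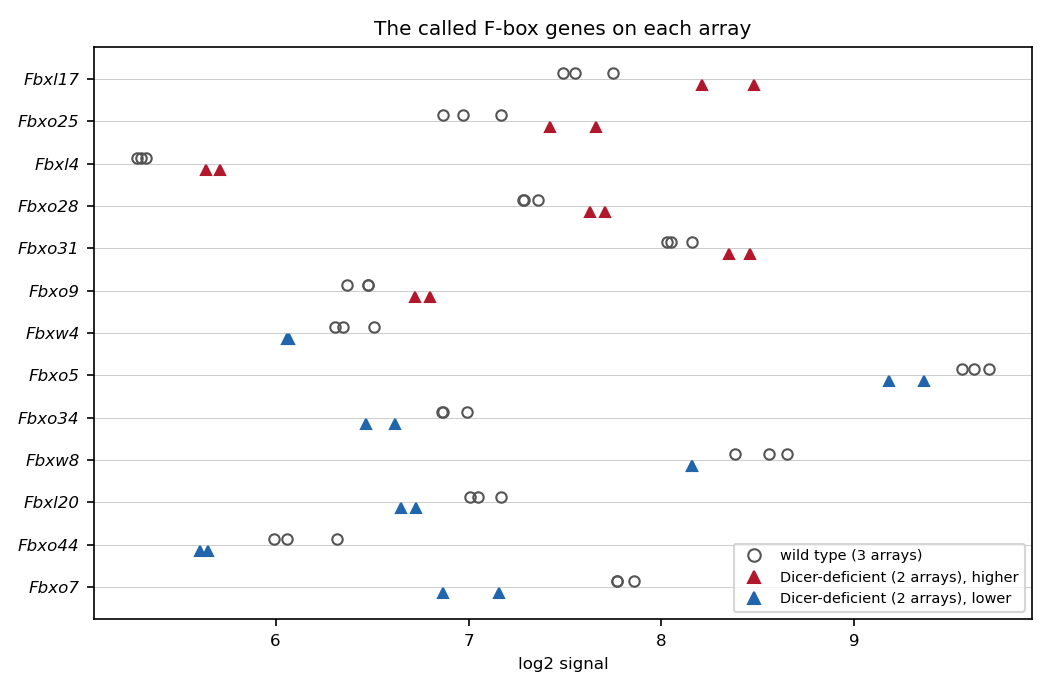
Log2 signal (x axis) of the 13 passing F-box genes on each array, with wild-type arrays as open circles and Dicer-deficient arrays as triangles, red where higher and blue where lower. The genotypes do not overlap in any of the 13, and the gap is widest for Fbxo7, where the closest arrays read 7.77 and 7.16.

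Of the 17 Fbxw genes 2 passed (11.8%, beside 17.1% of all genes), both lower, with a median change of -0.005. Fbxw8, the partner of the cullin Cul7, read 8.56, 8.65 and 8.38 in wild-type and 8.16 on both Dicer-deficient arrays. The lowest wild-type array was 8.38, so the groups were separate. The fall was 0.37 (SE 0.0973), or 1.29-fold (limma adjusted p = 0.0382), kept only without wild-type array 3 (0.121 to 0.221 in the other fits). Fbxw4, or dactylin, whose locus carries the mouse limb mutation dactylaplasia, read 6.31, 6.35 and 6.51 against 6.07 and 6.06. The fall was 0.325, or 1.25-fold (limma adjusted p = 0.0424), and passed in 0 of the 5 fits with 1 array left out (0.063 to 0.21) or with an intensity trend (0.0616). Fbxw5, linked to centriole duplication, read 7.60, 7.79 and 7.61 against 7.32 and 7.44. Its change of -0.29 did not pass (limma adjusted p = 0.0788), but did with array weights, at -0.35 (0.0276).

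Other well-studied WD40 members did not pass. Fbxw7, the receptor for cyclin E, Myc, Jun and Notch proteins, read 6.84, 6.71 and 6.69 in wild-type and 6.85 and 6.80 in Dicer-deficient cells. The values overlapped, and the change was 0.08 (95% interval -0.12 to 0.27, limma adjusted p = 0.651). A second Fbxw7 probe set read 3.48 to 3.96 and changed by 0.225 without passing. Fbxw11, one of the paired β-TrCP receptors, changed by -0.10 (-0.40 to 0.20). Its partner Btrc changed by -0.20 (limma adjusted p = 0.327).

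A cluster of Fbxw genes on chromosome 9 had dim signals throughout. Fbxw21, Fbxw13, Fbxw20, Fbxw22, Fbxw15, Fbxw24, Fbxw18 and Fbxw26 lie close together there and read 3.09 to 4.19 on all arrays, all under the median of all probe sets. None of the 8 passed in limma, and 1, Fbxw22, had an unadjusted p below 0.05, with a change of 0.22. Such near-copies can share probes, and 2 further probe sets that name several of these genes read 3.55 to 3.80. Fbxw14, Fbxw16, Fbxw19 and Fbxw28 have no probe set of their own. Of 7 oocyte markers, 6 were also at or below the median signal. The 9 Fbxw genes elsewhere read 4.95 to 8.65, and both passing genes were among them.

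All passing members were among the brighter ones. Of the 45 members above the median signal 13 passed, beside 27.9% of all such genes, and of the 26 at or below it 0 passed in limma, beside 3.24%. Those 26 changed by -0.28 to 0.22. By subfamily, 3 of 12 Fbxl, 8 of 25 Fbxo and 2 of 8 Fbxw genes above the median signal passed. Signals of different genes come from different probes and do not rank the genes by amount of RNA.

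**Figure D3:**
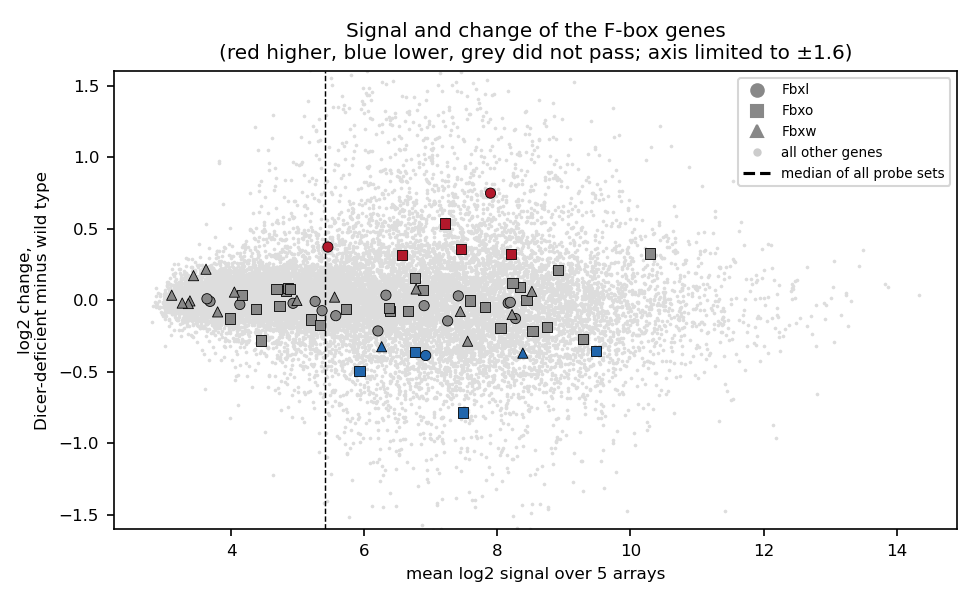
Mean log2 signal over the 5 arrays (x axis) against log2 change, Dicer-deficient minus wild type (y axis), for the F-box genes, with a shape for each subfamily, over all other genes as grey dots, and with a dashed line at 5.41, the median of all probe sets. All 13 passing members, in red and blue, lie to the right of the line, and the triangles at the far left are the chromosome 9 Fbxw genes.

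The ligase that F-box proteins plug into was read from lists of its parts. Of 11 measured genes of the SCF core and its ubiquitin-conjugating enzymes 4 fell and 0 rose, with a median change of -0.13. An unadjusted limma p below 0.05 was found for 5 of the 11, beside 5545 of all 19939 genes of any signal. All 11 lay above the median signal, and their share of passing genes, 36.4%, stood beside 27.9% of all such genes. The scaffold Cul1 at 0.23 (limma adjusted p = 0.105) and the adaptor Skp1 at -0.22 (0.252) did not pass. Sugt1, a cochaperone of Skp1, fell by 0.69, or 1.61-fold (limma adjusted p = 0.00317); the fall kept its sign but lost its call without either Dicer-deficient array (0.0626 and 0.0804). Cks1b, which helps Skp2 to bind its substrate p27, fell by 0.43 (0.0366) and passed in 0 of the 5 fits with 1 array left out (0.0502 to 0.286). Its relative Cks2 fell by 0.47 (0.026), with falls of 0.59 and 0.63 on 2 further probe sets, and kept its call only without wild-type array 3 (0.0523 to 0.206 in the other fits).

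Rbx1, the RING subunit that carries the conjugating enzyme, read 10.06, 9.91 and 9.76 in wild-type and 9.58 and 9.36 in Dicer-deficient cells on its brightest probe set. That is a fall of 0.44 (limma adjusted p = 0.0359), kept only without wild-type array 3 (0.112 to 0.287 in the other fits). The number of that probe set lies among those of chromosome 17, whereas Rbx1 is on chromosome 15, and which locus it reads was not tested. A second Rbx1 probe set read 8.68, 8.67 and 8.48 against 8.54 and 8.35, with overlapping groups and a change of -0.165, and the mean of both gave a limma adjusted p of 0.1. The probe sets used for Cks2, Ube2d2a and Ube2d3, for Gps1 of the COP9 list and for Ube2s of the APC/C list are likewise numbered among those of another chromosome, and the counts and medians of these lists include them. Cks2 is on chromosome 13, and its further probe set with the fall of 0.59 also has a number between those of chromosome 1 genes. Which locus each of these reads was not tested. Of all 71 F-box members, 0 have such a number.

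Nedd8, the small modifier that switches cullins on, had the largest change of all these partners. It read 10.32, 10.15 and 9.91 in wild-type and 8.89 and 8.74 in Dicer-deficient cells. The genotypes were more than 1 log2 unit apart. The fall was 1.31 (SE 0.126), or 2.48-fold, with a limma adjusted p of 0.000573, and passed in all 5 fits with 1 array left out. Nedd8 is on chromosome 14, and of its 24 nearest genes above the median signal 15 passed lower and 1 higher, with a median change of -0.51. Sugt1 is on the same chromosome, and of its 24 nearest such genes 6 passed lower and 4 higher, with a median change of 0.11, opposite in sign to its fall. The part of the chromosome in either fall was not tested.

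Of the 13 measured genes of neddylation and cullin exchange, 1 other fell and 1 rose, so that 23.1% passed beside 27.9% of all genes above the median signal, where 12 of the 13 lay. Dcun1d5, a helper of Nedd8 transfer, fell by 0.29 (limma adjusted p = 0.0378, 0.0533 with arrays centred on their medians, and kept among the fits with 1 array left out only without wild-type array 3, at 0.0947 to 0.155 in the others). Its relative Dcun1d3 rose by 0.48 (0.00445, and 0.0574 without Dicer-deficient array 1). Of the 9 subunits of the COP9 signalosome, which takes Nedd8 off again, 0 passed in limma, and the median change was 0.14. All 9 lay above the median signal, where 27.9% of all genes passed. An unadjusted limma p below 0.05 was found for 3 of the 9, beside 5545 of all 19939 genes of any signal. Of 7 other cullins, 1 passed (14.3%), beside 27.9% of all genes above the median signal, where all 7 lay. This was Cul3, which rose by 0.34 (limma adjusted p = 0.0403). With 1 array left out its change was 0.285 to 0.40, and the call was kept only without wild-type array 1.

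Of 7 F-box genes with other names 3 passed (42.9%), 6 of the 7 lying above the median signal, where 27.9% of all genes passed. Skp2, the receptor that degrades the cell-cycle inhibitor p27, read 8.49, 8.42 and 8.22 in wild-type and 9.16 and 9.27 in Dicer-deficient cells. The groups were far apart. Its rise of 0.84, or 1.79-fold (limma adjusted p = 0.00156), was larger than any among the 71 members, and had an adjusted p of 0.0571 without Dicer-deficient array 2. Ccnf, or cyclin F, which gave the F-box its name, read 10.04, 9.95 and 9.83 against 9.32 and 9.49. It fell by 0.535, or 1.45-fold (limma adjusted p = 0.00846); the fall kept its sign in all 5 fits with 1 array left out, but did not pass when wild-type array 2 or either Dicer-deficient array was omitted (0.056 to 0.118). Kdm2b, a histone demethylase with an F-box, fell by 0.51 (limma adjusted p = 0.0368), kept only without wild-type array 3 (0.131 to 0.314 in the other fits).

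**Figure D4:**
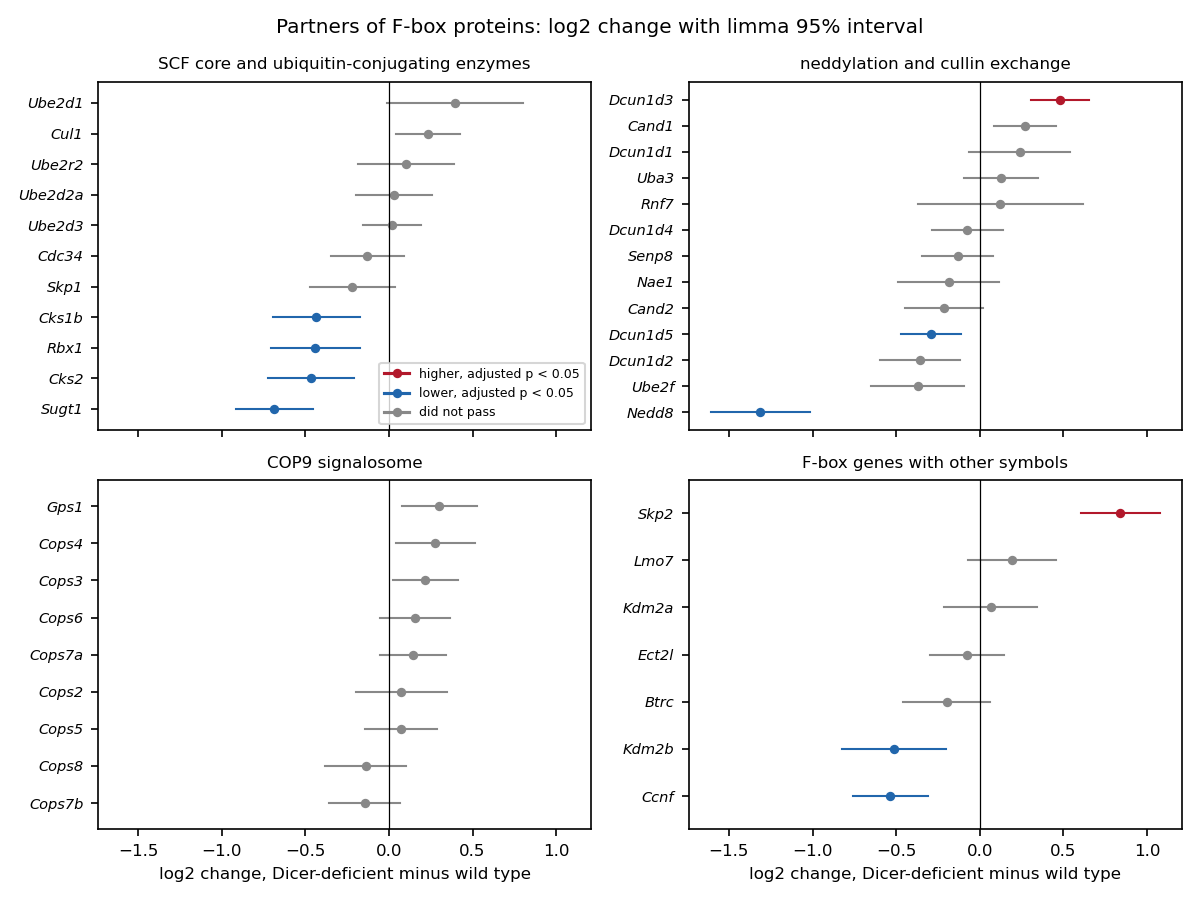
Log2 change (x axis, Dicer-deficient minus wild type) with limma's 95% interval for genes of the SCF core, neddylation, the COP9 signalosome and F-box genes with other symbols, red for higher, blue for lower and grey for genes that did not pass. Nedd8 at -1.31 and Skp2 at 0.84 lie farthest from 0, and 0 of the 9 COP9 genes passed.

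Of 36 genes whose proteins are reported SCF substrates, 6 rose and 4 fell, with a median change of -0.015. These 27.8% stood beside 27.9% of all genes above the median signal, where 33 of the 36 lay. Jun, an AP-1 factor degraded through Fbxw7, rose by 1.15 (limma adjusted p = 0.00046), and the receptor Notch2 by 0.75 (0.000847). Both passed in all 5 fits with 1 array left out. Cyclin D2 (Ccnd2) rose by 1.46 (0.00312, and 0.0655 without Dicer-deficient array 2). The pluripotency factor Klf4 fell by 0.95 (0.0151, kept only without Dicer-deficient array 1, with 0.0504 to 0.101 in the other fits). The 3 other rises were Ccne2, Mycn and Snai1, and the 3 other falls were Ccne1, Cdc6 and Ccnd3, and each of these 6 lost its call without either Dicer-deficient array. These are RNA signals and do not report the amount or breakdown of the proteins.

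Calls of F-box genes rested on few arrays. Without wild-type array 1, 2 or 3, the number of passing members was 5 (7.04%), 2 (2.82%) and 7 (9.86%), beside 10.9%, 8.72% and 14.8% of all genes. Without Dicer-deficient array 1 only Fbxo7 passed (1.41%, beside 4.88% of all genes), and without array 2 only Fbxo7 and Fbxl17 (2.82%, beside 5.18%). Calls over all genes thus dropped with each array as well. The sign of the change stayed the same for all 13 in all 5 fits. Of the 13, 5 passed in none of these fits and 6 in 1 or 2 of them.

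**Figure D5:**
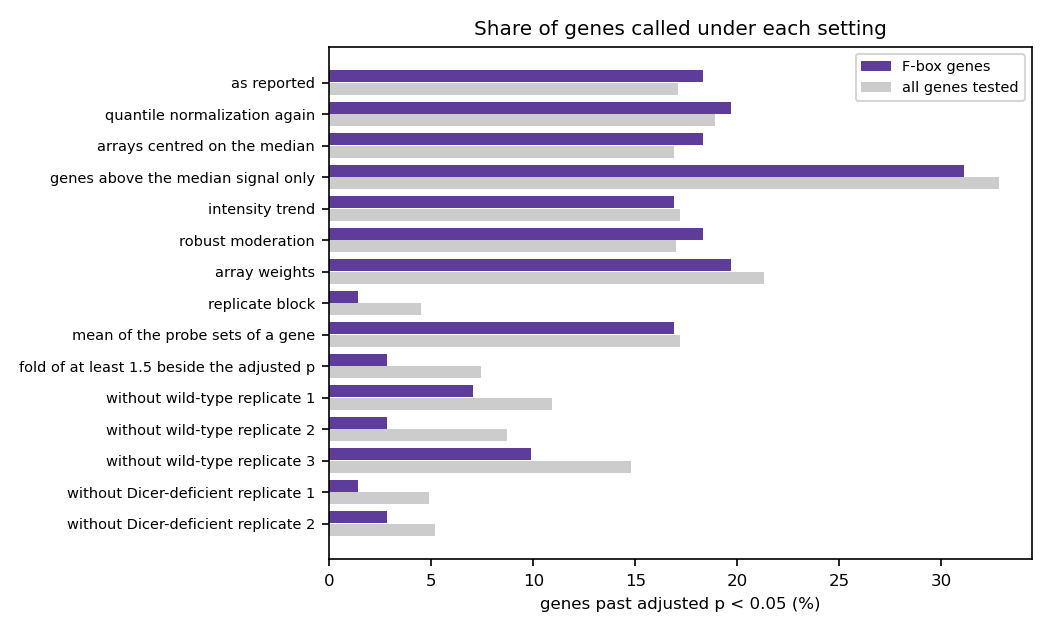
Share of genes passing an adjusted p of 0.05 (x axis, percent) under each processing setting, purple for the 71 F-box genes and grey for all genes tested under that setting. The family's share is 18.3% beside 17.1% as reported, and falls to 1.41% beside 4.88% without Dicer-deficient array 1.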

How the data were processed

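The deposited table holds, per array, a normalized log2 signal for 35556 probe sets. The authors' background correction, normalization and log base are not given in the sources used here. The scale was read as log2 from the values, and another base would rescale every change but no p-value. RNA was biotin-labelled for Affymetrix arrays, per the labels' protocols. Names came from the platform annotation, which can be old: 21789 probe sets had 1 symbol, 1621 several and 12146 none, and only the first kind were used. Of 19939 genes 998 had several probe sets, and the one with the highest mean over 5 arrays was taken.

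Arrays were grouped by title, and no covariate was used. limma 3.58.1 (lmFit and eBayes, R 4.3.3) gave moderated SEs, 95% intervals and p-values, Benjamini-Hochberg adjusted over all genes at 0.05, with 3 residual and 4.55 prior degrees of freedom. The fit was tested on simulated data. The smallest two-sided p of an exact permutation test with 3 against 2 arrays is 0.1, so none was run. Precision is limited by how few arrays there are. A left-out Dicer-deficient array leaves 1, assumed to vary like the wild-type arrays.

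Members and lists were chosen with earlier results of these data known. Named genes were all passing members, the 5 brightest, the 2 largest changes per subfamily that did not pass, a set of well-studied members, up to 4 passing genes per list, and Dicer1; marker genes and other genes that spell out a count were named after their values were seen. Cdc34b and Ube2m were listed but not read under a symbol of their own. Neighbours are the 12 genes on each side with a signal above the median, in RefSeq order. A probe set number was called out of place when 0 of the 20 nearest numbers belonged to a gene on the same chromosome, which held for 1.37% of genes. Promoters and gene order are from RefSeq (GRCm38.p6). Python 3.11.15 with pandas 2.3.3 and matplotlib 3.10.9 did the rest.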

Additional observations from a re-analysis of the deposited data

How the results depend on the processing

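Under a second quantile normalization, median centring, a test of genes above the median signal alone, an intensity trend, robust moderation, array weights and averaging over a gene's probe sets, the number of passing F-box genes in each direction stayed within 1.5 times the reported 6 higher and 7 lower. A fold of at least 1.5 left 1 higher and 1 lower. With 1 array left out, 0 to 3 passed higher and 1 to 4 lower. With the replicate number as a block, 1 passed higher (Fbxl17, limma adjusted p = 0.0469) and 0 lower (Fbxo7, 0.0698). That is 1.41% of the family, beside 4.48% of all genes. Only wild-type array 3 has its number, so the block takes up that array and gives the same changes as the fit without it. Deviations of same-numbered arrays correlated at 0.0492 and 0.00524 over genes, so only the number is known to be shared. The median change of Fbxl genes was -0.006 after quantile normalization, -0.0025 with the block and -0.04 to -0.0025 with 1 array left out. That of Fbxo genes was -0.01 with the block and -0.0575 to -0.01 with 1 array left out. That of Fbxw genes was 0.00667 after quantile normalization, -0.0892 over genes above the median signal, 0.0047 with array weights, 0.02 with the block and -0.0367 to 0.02 with 1 array left out, so its sign is not fixed. Among the named genes, the sign turned for some small changes that did not pass: Fbxl5 (0.007 after quantile normalization, -0.07 to 0.025 with 1 array left out), Fbxl21 (0.015 with the block, -0.06 to 0.015 with 1 array left out), Fbxw11 (-0.215 to 0.01 with 1 array left out), Fbxo32 (-0.00024 with array weights) and Fbxo43 (-0.0223 with array weights, -0.13 to 0.173 with 1 array left out). The cause was not tested. Over the 50 named genes and their 643 alternative fits, 510 kept direction and side of the threshold, 119 lost the call, 4 gained it and 10 turned sign. Genes with signals near or below the median of all probe sets have changes of uncertain size.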
